A study of Mus musculus with 10 samples.

Results

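The 10 genes described here encode the enzymes that make serine from glucose and those that pass its carbon through the folate pathway: Phgdh, Psat1, Psph, Shmt1, Shmt2, Mthfd1, Mthfd2, Mthfd1l, Aldh1l1 and Aldh1l2. They were chosen by symbol among the 39017 genes of the count table, where each symbol had 1 row, and all 10 were among the 15922 genes with enough reads to be tested. Read counts were measured by RNA sequencing of lung tumours from mice of C57BL/6 background, with 5 libraries labelled Control and 5 labelled Glut1-KO. All mice carried K-ras LSL-G12D/WT and p53 Fl/Fl (KP). The Glut1-KO mice (KPG1) carried Glut1 Fl/Fl in addition, whereas the genotype label of the Control libraries is heterozygous fl/wt and the design text speaks of wild-type Glut1. Cre recombinase was delivered into the trachea with the adenovirus Ad5CC10-Cre, in which the promoter of CC10, a club cell gene, drives Cre. Host cells that Cre did not reach keep their floxed alleles. Tumours were taken at 20 weeks and 1 day after initiation and macrodissected, and RNA came from the fraction left after CD45-positive immune cells were removed with magnetic beads. All 5 Control libraries were labelled male, as were Glut1-KO replicates 4 and 5, while Glut1-KO replicates 1, 2 and 3 were labelled female.

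Cells build serine from the glycolytic intermediate 3-phosphoglycerate. Phgdh oxidises it, Psat1 transfers an amino group to the product and Psph removes the phosphate. Serine hydroxymethyltransferases then split serine into glycine and a carbon unit carried on tetrahydrofolate, Shmt1 in the cytosol and Shmt2 in mitochondria. In mitochondria Mthfd2 oxidises the unit to formyl-tetrahydrofolate and Mthfd1l releases it as formate. In the cytosol the trifunctional Mthfd1 takes up formate for the synthesis of purines and thymidylate. The formyl-tetrahydrofolate dehydrogenases Aldh1l1 (cytosolic) and Aldh1l2 (mitochondrial) burn the unit to carbon dioxide. Because 3-phosphoglycerate comes from glucose, the comparison of Control and Glut1-KO tumours asks how the mRNAs of this pathway stood when the gene of a glucose transporter was targeted. The transcription factor ATF4 is known to drive several of these genes, and many tumours express Phgdh, Shmt2 and Mthfd2 strongly.

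Library totals lay between 35250991 and 49760462 counts. Values are given as CPM, counts divided by the TMM-scaled library size. Slc2a1, the gene of Glut1, was read first as a limited check of the labels. Its reads were counted over the whole gene, and which exons the floxed allele loses is not given in the sources used here. Cells that Cre did not reach can add reads as well. Slc2a1 stood at 118, 86.7, 92.6, 103 and 73.2 CPM in Control replicates 1 to 5 and at 60.3, 42.5, 34.6, 92.4 and 103 CPM in Glut1-KO replicates 1 to 5. The 3 female Glut1-KO libraries were below every Control library, while Glut1-KO replicates 4 and 5 lay within the Control range, so the libraries are called by their labels below. Over the groups its log2 fold change was -0.62 (SE 0.29, adjusted p = 0.658 by limma). In bulk RNA, fewer cells of a type and less RNA per cell cannot be told apart. The files carry a further number in their names that Control replicates 1, 2 and 5 share, as do Control replicates 3 and 4 and Glut1-KO replicates 4 and 5. No label says what it stands for. If libraries that share it came from the same animal, the p-values below rest on fewer independent samples than 5 per group.

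The promoters of 4 genes are shown first, since their genes carry the main pattern described below: Mthfd2, Psat1 and Mthfd1l moved together from library to library and Aldh1l1 ran against them. The sequences are the 250 bases before the RefSeq transcription start (build GRCm38.p6), 5′ to 3′ on the strand of the gene. Capitals mark each CCAAT box, searched as CCAAT on both strands, so that a match on the other strand reads ATTGG. The Mthfd2 window is chr6:83317605-83317854 on the minus strand, the Psat1 window chr19:15925060-15925309 on the minus strand, the Mthfd1l window chr10:3972825-3973074 on the plus strand and the Aldh1l1 window chr6:90550543-90550792 on the plus strand. Those of Mthfd2, Psat1 and Aldh1l1 lie inside the span of the gene in GENCODE M21, which also holds transcripts that start further upstream.
Mthfd2: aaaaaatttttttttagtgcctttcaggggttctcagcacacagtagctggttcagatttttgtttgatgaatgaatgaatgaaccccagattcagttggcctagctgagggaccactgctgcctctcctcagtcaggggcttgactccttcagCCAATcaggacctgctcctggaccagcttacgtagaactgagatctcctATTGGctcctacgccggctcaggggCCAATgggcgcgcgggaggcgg
Psat1: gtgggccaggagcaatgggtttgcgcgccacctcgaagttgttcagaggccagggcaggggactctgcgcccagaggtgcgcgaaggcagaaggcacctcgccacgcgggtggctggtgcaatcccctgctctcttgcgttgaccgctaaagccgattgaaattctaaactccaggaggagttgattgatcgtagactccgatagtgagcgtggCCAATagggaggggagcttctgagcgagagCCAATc
Mthfd1l: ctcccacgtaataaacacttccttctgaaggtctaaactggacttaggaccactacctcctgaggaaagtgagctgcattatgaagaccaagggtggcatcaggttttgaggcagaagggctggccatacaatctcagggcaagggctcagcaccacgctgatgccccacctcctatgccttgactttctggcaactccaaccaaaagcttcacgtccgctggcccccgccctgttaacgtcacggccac
Aldh1l1: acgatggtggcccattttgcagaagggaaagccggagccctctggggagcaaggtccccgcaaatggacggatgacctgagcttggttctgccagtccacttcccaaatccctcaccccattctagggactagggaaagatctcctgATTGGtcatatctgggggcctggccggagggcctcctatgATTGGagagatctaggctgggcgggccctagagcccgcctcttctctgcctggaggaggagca
The Mthfd2 window held CCAAT boxes that began 96, 47 and 22 bases before the start. The Aldh1l1 window held boxes at 103 and 63 bases, the Psat1 window shown at 36 and 6 bases, and the Mthfd1l window none. RefSeq promoters were matched for 9 of the 10 genes, all but Aldh1l2, and Psat1 had a pair, which gave 10 windows. The other Psat1 window, chr19:15924623-15924872, held 0 CCAAT boxes. A CCAAT box was present in 7 of these 10 windows and in 33.8% of all 32851 RefSeq promoter windows of the same length. The C/EBP-ATF response element core TGATGNAA, the kind of site that ATF4 dimers read, was present in 0 of the 10 windows and in 3.45% of all windows. The E-box CACGTG was present in 0 of the 10 and in 6.02% of all. Both strands were searched, and matches of different motifs could overlap. These are matches of letters in a short window and describe no binding.

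All 10 genes had reads in every library, from 264 counts (Psph) to 10669 counts (Psat1) in a library. Per kilobase of exon, the level over the 10 libraries was highest for Mthfd1 at 36.1 ± 8.43 CPM per kb (SD, n = 10), followed by Psat1 at 29.7 ± 12.5, Shmt1 at 22.3 ± 5.78, Phgdh at 20.0 ± 9.35, Shmt2 at 17.1 ± 4.39, with Mthfd2 at 14.3 CPM per kb. Neighbours in this order differed by less than the larger of their SDs. Mthfd1l followed at 7.35 ± 3.66 and Aldh1l1 at 5.68 ± 3.93 CPM per kb. Psph at 2.84 ± 0.914 and Aldh1l2 at 2.07 ± 0.937 CPM per kb were the lowest. Of the serine synthesis steps, the phosphatase was thus the least abundant mRNA, and for the tetrahydrofolate steps the mitochondrial form was the less abundant mRNA of each of the 3 pairs on average.

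Between the groups, none of the 10 enzymes passed the threshold of an adjusted p under 0.05 (limma with voom). Over all tested genes 0% passed (0 of 15922), the smallest adjusted p being 0.23. Before adjustment, limma gave a p under 0.05 for 1223 genes, or 7.68%, and for 0 of the 10 enzymes. The libraries of the groups did not overlap for 295 genes, or 1.85%, and overlapped for all 10 enzymes. The test of edgeR (quasi-likelihood) called 0 genes and the Wald test of DESeq2 called 215, and neither called one of the 10. By sign, 4 of the enzymes had a positive and 6 a negative log2 fold change, Glut1-KO over Control, and their median was -0.05 against 0.00 for all tested genes. Group membership accounted for between 0.0937% (Psat1) and 33.1% (Shmt2) of the variance of a gene in log2 CPM, with 18.0% for Psph, 12.2% for Mthfd1, 11.3% for Phgdh and a median of 1.08%. The intervals below show how much of a difference these samples leave possible. In GENCODE M21, besides Psat1, 8 of the 10 genes share bases with a neighbour on the other strand or with an annotated noncoding gene (Psph with Cct6a, Shmt1 with Smcr8, Shmt2 with Ndufa4l2, Aldh1l2 with D10Wsu102e, Mthfd1 with Gm34868, Mthfd2 with Gm43890, Mthfd1l with Gm16074 and Aldh1l1 with Gm15756). The kit marks strand, but whether the counting used it is not given in the sources used here, so reads of such neighbours may be counted in.

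**Figure D1:**
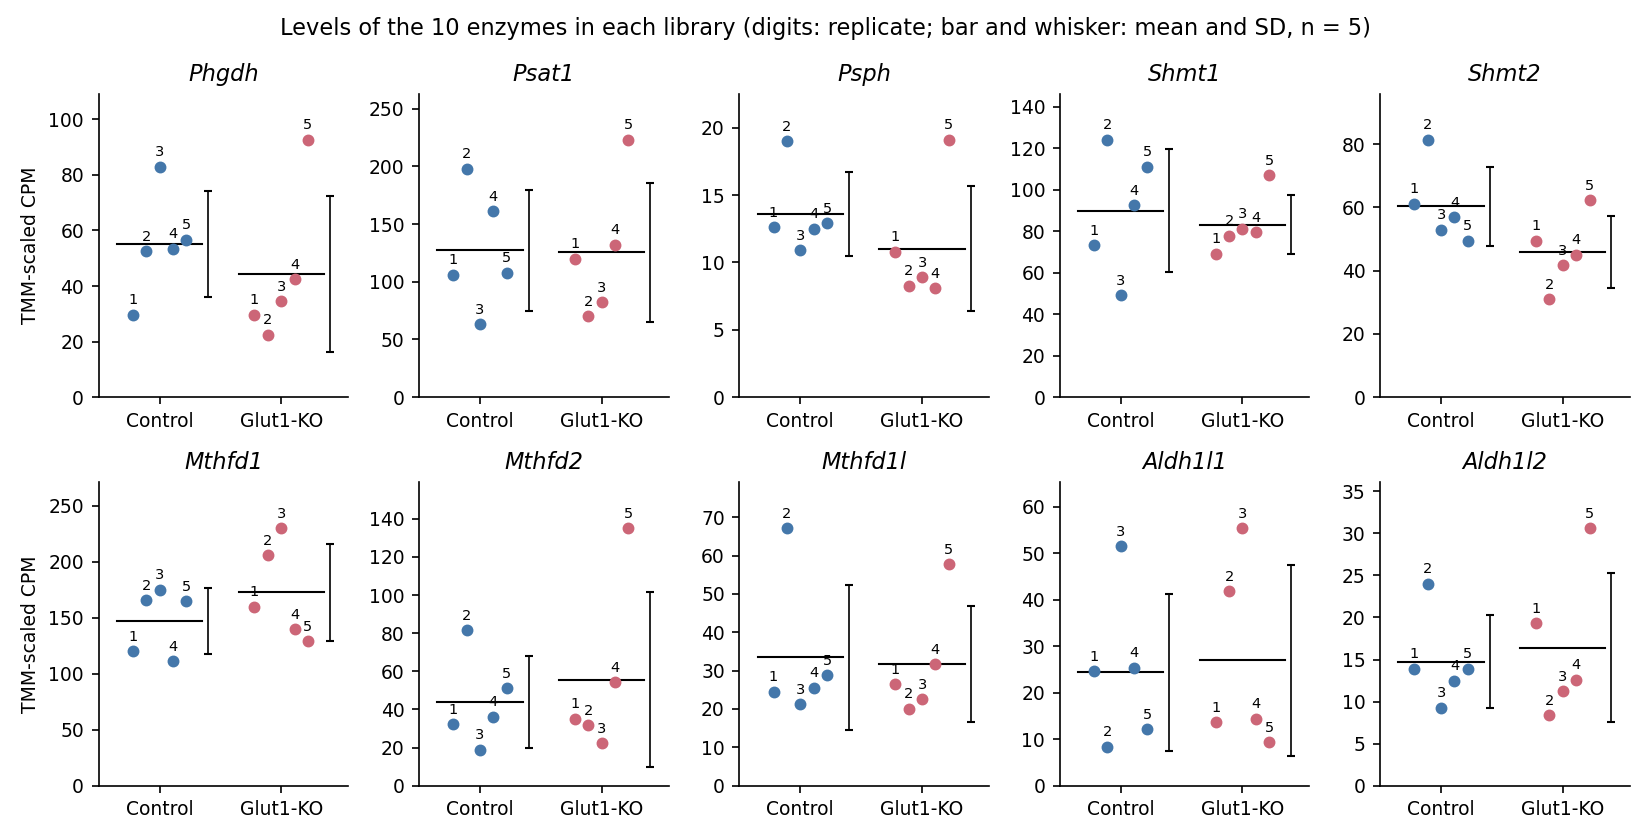
Levels of the 10 enzymes in TMM-scaled CPM (linear axis from 0), with 1 point per library, the replicate number beside it, and the mean (line) and SD (whisker) of 5 libraries per group. The groups overlap for every gene, and Control 2 and Glut1-KO 5 stand highest for Psat1, Psph, Shmt2, Mthfd2, Mthfd1l and Aldh1l2.

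None of the 3 enzymes of serine synthesis differed between the groups by more than the spread of the libraries. Phgdh (ENSMUSG00000053398, chr3:98313170-98339990, minus strand, mm10) catalyses the first step. It stood at 29.6, 52.6, 83.0, 53.4 and 56.7 CPM in Control replicates 1 to 5 and at 29.6, 22.4, 34.5, 42.5 and 92.6 CPM in Glut1-KO replicates 1 to 5. As many as 4 Glut1-KO libraries lay below 4 of the Control libraries, and Glut1-KO 5 lay above them all. The means were 55.1 ± 19.0 and 44.3 ± 28.0 CPM (SD over 5 libraries each), and the log2 fold change was -0.42 (95% interval -1.23 to 0.38, adjusted p = 0.802 by limma, exact 2-sided permutation p = 0.333). Single libraries moved the difference by over 1.5 times in both directions. The log2 fold change was -0.74 without Glut1-KO 5 (adjusted p = 0.426 by limma), -0.26 without Control 3 and -0.22 without Glut1-KO 2.

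Psat1 (ENSMUSG00000024640, chr19:15904678-15947337, minus strand), the aminotransferase, stood at 106, 198, 63.4, 161 and 108 CPM in Control replicates 1 to 5 and at 120, 70.2, 82.3, 132 and 223 CPM in Glut1-KO replicates 1 to 5. The ranges nearly coincided, with a high and a low library in each group. The means were 127 ± 52.5 and 126 ± 60.3 CPM and the log2 fold change was -0.04 (95% interval -0.82 to 0.75, adjusted p = 0.987 by limma). An annotated pseudogene, Gm3329, lies inside the gene, and how reads were divided between them is not given in the sources used here.

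Psph (ENSMUSG00000029446, chr5:129765558-129787449, minus strand), the phosphatase, stood at 12.6, 19.0, 10.9, 12.5 and 12.9 CPM in Control replicates 1 to 5 and at 10.8, 8.27, 8.89, 8.1 and 19.1 CPM in Glut1-KO replicates 1 to 5. As many as 4 Glut1-KO libraries lay below all 5 Control libraries and Glut1-KO 5 lay above them all. The log2 fold change was -0.36 (95% interval -0.92 to 0.20, adjusted p = 0.768 by limma, exact 2-sided permutation p = 0.23). It was -0.58 without Glut1-KO 5 (adjusted p = 0.4 by limma) and -0.21 without Control 2.

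The serine hydroxymethyltransferases differed from each other in how the libraries spread. Shmt1 (ENSMUSG00000020534, chr11:60788104-60811718, minus strand), the cytosolic form, stood at 73.1, 124, 49.1, 92.5 and 111 CPM in Control replicates 1 to 5 and at 69.2, 77.8, 81.2, 79.6 and 107 CPM in Glut1-KO replicates 1 to 5. All Glut1-KO libraries lay inside the Control range, and the log2 fold change was -0.06 (95% interval -0.58 to 0.46, adjusted p = 0.966 by limma). Shmt2 (ENSMUSG00000025403, chr10:127517123-127522444, minus strand), the mitochondrial form, stood at 61.2, 81.4, 53.0, 57.0 and 49.5 CPM in Control replicates 1 to 5 and at 49.5, 30.9, 41.8, 45.1 and 62.3 CPM in Glut1-KO replicates 1 to 5. Of the 10 genes it had the smallest p, and the groups overlapped mainly through Glut1-KO 5. The means were 60.4 ± 12.5 and 45.9 ± 11.4 CPM, a log2 fold change of -0.41 (95% interval -0.84 to 0.01, unadjusted p = 0.0565 and adjusted p = 0.665 by limma, exact 2-sided permutation p = 0.0794). The smallest p that all assignments of 5 against 5 libraries can give is 0.00794. Leaving out a library gave -0.52 without Glut1-KO 5 (adjusted p = 0.394 by limma), -0.29 without Control 2 and -0.28 without Glut1-KO 2.

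Mthfd1 and the mitochondrial pair Mthfd2 and Mthfd1l convert the carbon unit between its folate-bound forms and formate. Mthfd1 (ENSMUSG00000021048, chr12:76255298-76319803, plus strand) stood at 120, 166, 175, 111 and 165 CPM in Control replicates 1 to 5 and at 160, 206, 230, 140 and 129 CPM in Glut1-KO replicates 1 to 5. Glut1-KO 2 and Glut1-KO 3 were above all Control libraries and the other 3 lay among them. The log2 fold change was 0.22 (95% interval -0.21 to 0.65, adjusted p = 0.805 by limma). It varied least of the 10 genes, with 2.07-fold between the highest and the lowest library.

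Mthfd2 (ENSMUSG00000005667, chr6:83305691-83325908, minus strand) had the widest ratio of the highest to the lowest library, 7.13-fold, and an SD of 0.85 in log2 CPM, second to Aldh1l1 with 1.01. It stood at 32.1, 81.4, 18.9, 36.1 and 51.0 CPM in Control replicates 1 to 5 and at 35.2, 31.7, 22.3, 54.2 and 135 CPM in Glut1-KO replicates 1 to 5. Both groups held 1 library well above its other 4, Control 2 and Glut1-KO 5, and the lowest library of each was replicate 3. The means were 43.9 ± 23.9 and 55.7 ± 45.8 CPM, and the log2 fold change of 0.18 had a 95% interval from -0.92 to 1.27 (adjusted p = 0.95 by limma). Without Glut1-KO 5 it was -0.23. Mthfd1l (ENSMUSG00000040675, chr10:3973118-4167081, plus strand) stood at 24.5, 67.1, 21.3, 25.5 and 28.8 CPM in Control replicates 1 to 5 and at 26.5, 20.1, 22.6, 31.6 and 57.8 CPM in Glut1-KO replicates 1 to 5. Again Control 2 and Glut1-KO 5 stood apart, and the remaining 8 libraries lay within 20.1 to 31.6 CPM. The log2 fold change was -0.07 (95% interval -0.86 to 0.72, adjusted p = 0.978 by limma).

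The formyl-tetrahydrofolate dehydrogenases ran in opposite directions across libraries. Aldh1l1 (ENSMUSG00000030088, chr6:90486427-90600203, plus strand) stood at 24.6, 8.39, 51.6, 25.4 and 12.1 CPM in Control replicates 1 to 5 and at 13.7, 41.9, 55.4, 14.4 and 9.33 CPM in Glut1-KO replicates 1 to 5. Control 2 and Glut1-KO 5 were here the lowest libraries and both libraries numbered 3 the highest. The log2 fold change was 0.14 with a wide 95% interval, from -1.17 to 1.45 (adjusted p = 0.971 by limma). Aldh1l2 (ENSMUSG00000020256, chr10:83487450-83534140, minus strand) stood at 13.9, 24.0, 9.26, 12.5 and 13.9 CPM in Control replicates 1 to 5 and at 19.3, 8.37, 11.2, 12.6 and 30.6 CPM in Glut1-KO replicates 1 to 5. Control 2 and Glut1-KO 5 were again the highest libraries, and the log2 fold change was 0.06 (95% interval -0.74 to 0.85, adjusted p = 0.981 by limma).

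**Figure D2:**
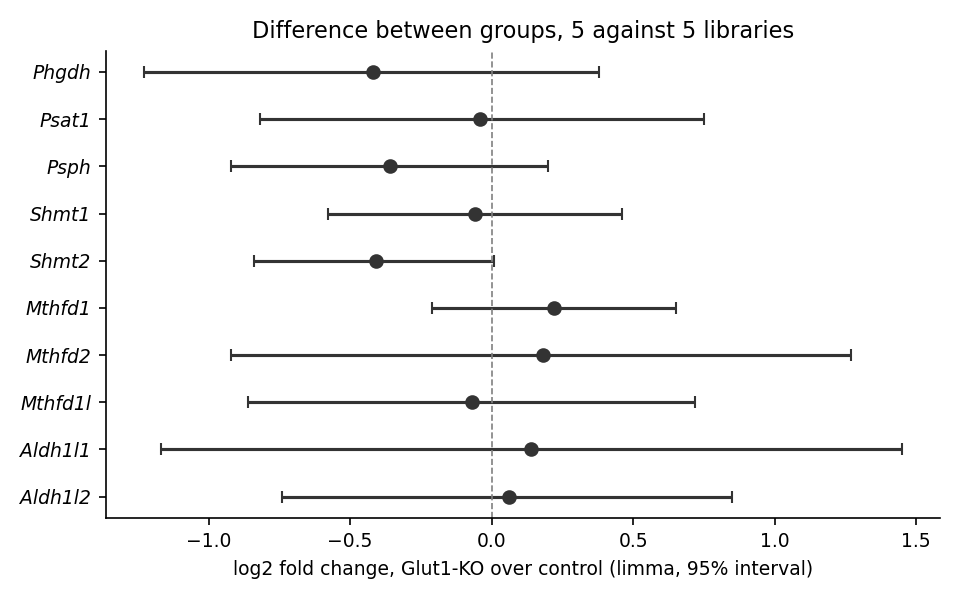
Log2 fold change of each enzyme, Glut1-KO over Control, from limma with voom (points) with its 95% interval (bars), 5 against 5 libraries, and a dashed line at no difference. All 10 intervals include 0, the narrowest miss being Shmt2 with an upper bound of 0.01, and the interval of Aldh1l1 is the widest, from -1.17 to 1.45.

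Sex was not balanced between the groups, so the values were also read by sex. With sex as a covariate 6 of the 10 log2 fold changes changed sign, to 0.28 for Phgdh, 0.53 for Psat1, 0.11 for Shmt1, -0.11 for Mthfd1, 0.49 for Mthfd1l and -0.78 for Aldh1l1. Psph and Shmt2 kept their sign but came closer to 0, at -0.057 and -0.16. Mthfd2 reached 1.12 (unadjusted p = 0.0486, adjusted p = 0.448 by limma), in a fit where 11.1% of all genes had an unadjusted p under 0.05. These estimates rest on Glut1-KO replicates 4 and 5 against the Control libraries, the 2 Glut1-KO libraries whose Slc2a1 lay within the Control range (92.4 and 103 CPM). Mthfd2 stood at 54.2 CPM in Glut1-KO 4 and at 135 CPM in Glut1-KO 5, against a Control mean of 43.9 CPM. In the 3 female Glut1-KO libraries against all Control libraries, Phgdh was at -0.87, Psph at -0.54 and Shmt2 at -0.57 on the log2 scale, with unadjusted p of 0.0205, 0.0396 and 0.0205 and adjusted p of 0.288, 0.343 and 0.288 by limma. None passed the threshold, and 13.8% of all genes had an unadjusted p under 0.05 in that fit. In the other direction, Mthfd1 was at 0.45 (unadjusted p = 0.0508, adjusted p = 0.365 by limma) and Aldh1l1 at 0.71 (adjusted p = 0.624). In that comparison sex and genotype cannot be told apart. Control 2 and Glut1-KO 5 were also left out together, a choice made after seeing that they stood highest for several of these enzymes. Lower p-values then follow in part from the choice and support nothing: Phgdh, Psph and Shmt2 had an unadjusted p under 0.05 by limma, as did 10.6% of all genes, and none passed the adjusted threshold.

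The larger differences were between libraries of the same group. Glut1-KO 5 was among the 2 highest libraries for 7 of the 10 genes, and so was Control 2. Glut1-KO 2 was among the 2 lowest for 6 genes and Control 3 for 5. These libraries thus ranked alike for several of the genes. How often they rank so among all tested genes was not counted. Over all 45 pairs of the 10 genes the median Pearson's r of log2 CPM was 0.49, with 21 pairs above 0.5 and 9 below -0.5. A set of genes that moved alike was Psat1, Psph, Mthfd2, Mthfd1l and Aldh1l2, picked after the values were seen. Across the 10 libraries their 10 pairs had Pearson's r of log2 CPM between 0.70 and 0.90. With the group means removed, r lay between 0.80 and 0.94. Without Control 2 and Glut1-KO 5 it lay between 0.06 and 0.84. Without them 5 of the 10 pairs fell under 0.5 and therefore rested on those libraries: Psph with Mthfd2 (0.06), Mthfd1l (0.16), Psat1 (0.33) and Aldh1l2 (0.44), and Mthfd2 with Aldh1l2 (0.46). Mthfd2 with Mthfd1l (0.90, and 0.84 without them) and Psat1 with Mthfd1l (0.86 and 0.78) changed less. The pattern was not particular to this set. Shmt2 had r between 0.49 (Mthfd2) and 0.86 (Psph) with the same genes, and Shmt1 between 0.60 (Psph) and 0.78 (Mthfd2). Without Control 2 and Glut1-KO 5, these lay between 0.02 (Mthfd2) and 0.80 (Psph) for Shmt2, and between 0.19 (Psph) and 0.70 (Mthfd2) for Shmt1. These correlations are descriptions of 10 libraries, some of which share a name number. Every library enters each pair with the same depth and scaling factor.

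**Figure D3:**
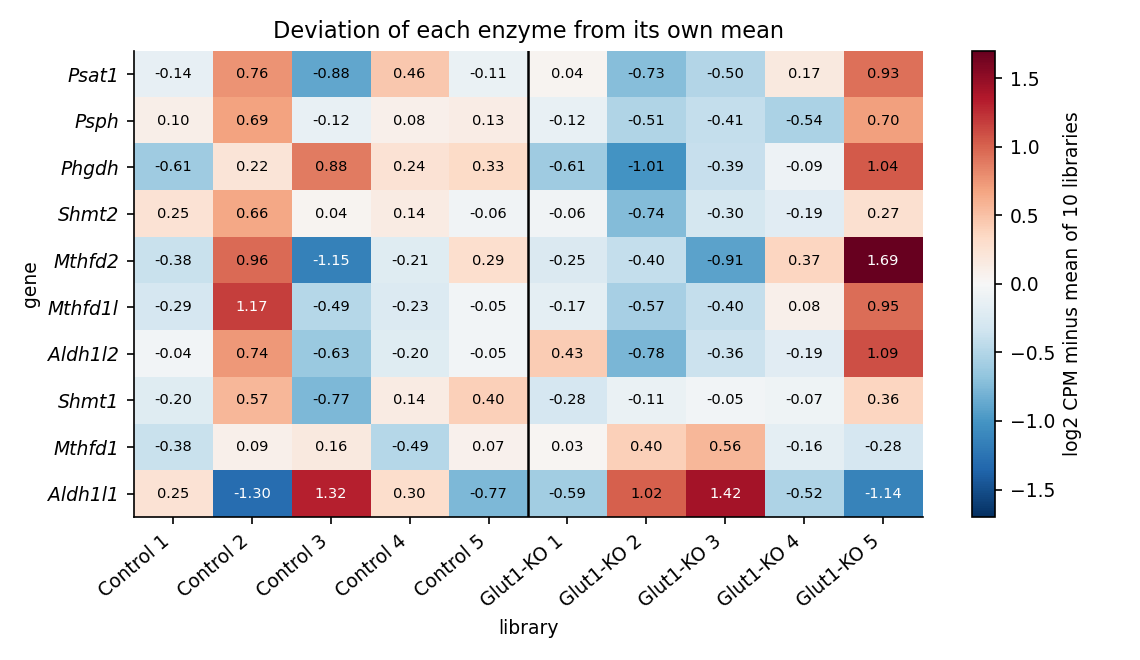
Log2 CPM of each enzyme (rows) minus its own mean over the 10 libraries (columns, Control left of the line and Glut1-KO right of it), in colour and as a number. Control 2 and Glut1-KO 5 are high for most rows and low for Aldh1l1, at -1.30 and -1.14, while both replicates numbered 3 are high for Aldh1l1, at 1.32 and 1.42.

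Aldh1l1 was the mirror image of that set. Its r with the 5 genes lay between -0.88 and -0.66, within groups between -0.89 and -0.71, and without Control 2 and Glut1-KO 5 between -0.88 and -0.31. Its relation with Mthfd2 was the steadiest, at -0.88 with and without those libraries. Mthfd1 was less closely tied, with r between -0.61 and 0.45 against the other 9 genes. Without those libraries its r lay between -0.76 (Psat1) and 0.50 (Aldh1l1), with -0.74 for Shmt2. Phgdh had r between -0.31 and 0.60. For the first and the second step of serine synthesis, r was 0.39, and 0.01 without Control 2 and Glut1-KO 5. Among the Control libraries Phgdh was highest in Control 3, where Psat1 was lowest, whereas among the Glut1-KO libraries both were highest in replicate 5 and lowest in replicate 2.

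For 3 pairs of a cytosolic and a mitochondrial enzyme, a ratio of mRNA per kilobase was formed, mitochondrial over cytosolic. Mthfd2 and Mthfd1, which also share a folate step, were not set in a ratio. Per kilobase, Mthfd2 was above Mthfd1 only in Glut1-KO 5, at 38.7 against 29.1 CPM per kb. The ratio of Aldh1l2 to Aldh1l1 spanned 18.3-fold. It was 0.342, 1.72, 0.108, 0.296 and 0.689 in Control replicates 1 to 5 and 0.851, 0.12, 0.122, 0.527 and 1.97 in Glut1-KO replicates 1 to 5. Per kilobase, the mitochondrial mRNA was thus the more abundant only in Control 2 and Glut1-KO 5. It was furthest below the cytosolic one in Control 3, Glut1-KO 2 and Glut1-KO 3. This depends on the annotated exon lengths, 7503 bases for Aldh1l2 and 4516 for Aldh1l1. In CPM, Aldh1l2 was also above Aldh1l1 in Control 5 (13.9 against 12.1) and Glut1-KO 1 (19.3 against 13.7). The mean log2 ratio was -1.25 ± 1.49 in Control and -1.25 ± 1.77 in Glut1-KO libraries (SD, n = 5 each). Mthfd1l to Mthfd1 lay between 0.0979 (Glut1-KO 2) and 0.448 (Glut1-KO 5), with mean log2 ratios of -2.25 ± 0.63 and -2.52 ± 0.92. Shmt2 to Shmt1 spanned less, from 0.496 (Glut1-KO 2) to 1.35 (Control 3), with mean log2 ratios of -0.20 ± 0.48 and -0.56 ± 0.31. For each pair the group means differed by less than the larger SD.

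**Figure D4:**
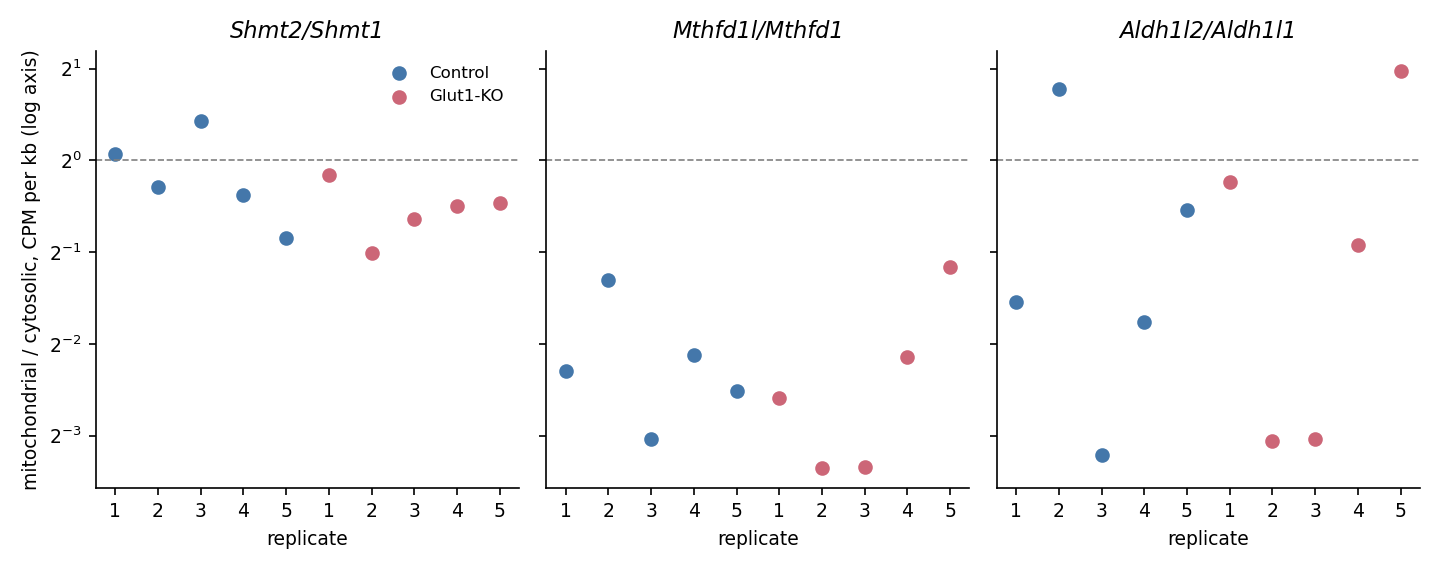
Ratio of the mitochondrial to the cytosolic enzyme of each pair, in CPM per kb on a log2 axis, by library (x axis: replicate, Control then Glut1-KO), with a dashed line where both are equal. Aldh1l2 to Aldh1l1 spans 18.3-fold and exceeds 1 in Control 2 and Glut1-KO 5 only, and Mthfd1l to Mthfd1 does not exceed 0.448 in any of the 10 libraries.

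The genes whose log2 CPM was most like that of each enzyme were looked up among the 15922 tested genes, 3 per enzyme. Mthfd1 was most like Pomt2 (r = 0.983, n = 10), Zfp41 (0.97) and Ppp1r13b (0.967), and Shmt2 was most like Rnf126 (0.976), Gm26917 (0.968) and Sgta (0.967). Psph was nearest to Gm17435 (0.979), Gins4 (0.963) and Trmt1 (0.961), and Aldh1l2 to Nob1 (0.962), Hook2 (0.958) and Irf2bp2 (0.955). Mthfd1l was nearest to Taf1c (0.984), Mif (0.97) and Pdap1 (0.97), Mthfd2 to Aph1b (0.964), Zbtb18 (0.955) and Gm13772 (0.953), and Psat1 to Polr2m (0.972), Tipin (0.963) and Gm7027 (0.953). Phgdh was nearest to Gm7901 (0.953), Nkain1 (0.925) and Cnih4 (0.925), Shmt1 to Rfx7 (0.937), Fem1b (0.926) and Strbp (0.925), and Aldh1l1 to Trim56 (0.95), Aox1 (0.926) and Irgm2 (0.923). None of the 30 genes was another enzyme of the 10. With so many genes and 10 libraries, high values turn up for any gene. Of the 30 genes, 6 lay on the chromosome of their enzyme, among them Pomt2 and Ppp1r13b on chromosome 12 with Mthfd1, and Rnf126 and Sgta on chromosome 10 with Shmt2. A further 7 lay on chromosome 8, all 3 for Psph and all 3 for Aldh1l2 among them, and 5 on chromosome 9, although neither chromosome holds any of the 10 enzymes. Chromosomes 8 and 9 hold 5.48% and 5.49% of the genes with a mean of at least 1 CPM.

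After that was seen, the level of each enzyme was set beside the median log2 deviation of all genes on its chromosome with a mean of at least 1 CPM. Chromosome 12, with 463 such genes, varied most of the 19 autosomes, from -0.40 to 0.33 between libraries. Its median stood at -0.40, 0.24, -0.05, -0.30 and 0.13 in Control replicates 1 to 5 and at -0.14, 0.31, 0.33, -0.01 and -0.11 in Glut1-KO replicates 1 to 5. Mthfd1 deviated from its own mean by -0.38, 0.09, 0.16, -0.49 and 0.07 in the Control and by 0.03, 0.40, 0.56, -0.16 and -0.28 in the Glut1-KO libraries, so both were lowest in Control 1 and Control 4 and highest in Glut1-KO 2 and Glut1-KO 3. Pearson's r was 0.88 (Spearman's rho 0.87), and 0.81 without the 2 libraries farthest from the median. Relative to chromosome 12, the SD of Mthfd1 over the 10 libraries was 0.17 in place of 0.33, and the group difference was 0.07 in place of 0.22 on the log2 scale. Shmt2 had r = 0.90 with chromosome 10 (647 genes), and its group difference was -0.23 relative to that chromosome in place of -0.41. Psph had r = 0.84 with chromosome 5 (880 genes), with -0.25 in place of -0.35. The values for Mthfd2 with chromosome 6 (0.76), Mthfd1l (0.64) and Aldh1l2 (0.60) with chromosome 10 were lower. Spearman's rho was 0.73, 0.33 and 0.59, and r without the 2 farthest libraries 0.67, 0.46 and 0.49, so the value of Mthfd1l rested on few libraries. On the log2 scale their SDs changed little, from 0.85 to 0.78, from 0.59 to 0.51 and from 0.59 to 0.52. Their group differences became 0.15 in place of 0.20 for Mthfd2, 0.13 in place of -0.04 for Mthfd1l and 0.25 in place of 0.08 for Aldh1l2. Psat1 had 0.36 with chromosome 19, and Shmt1 (-0.53), Aldh1l1 (-0.52) and Phgdh (-0.58) ran against their chromosomes. The group difference of Phgdh became -0.52 in place of -0.42. The part of the chromosome level in these differences was not tested.

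**Figure D5:**
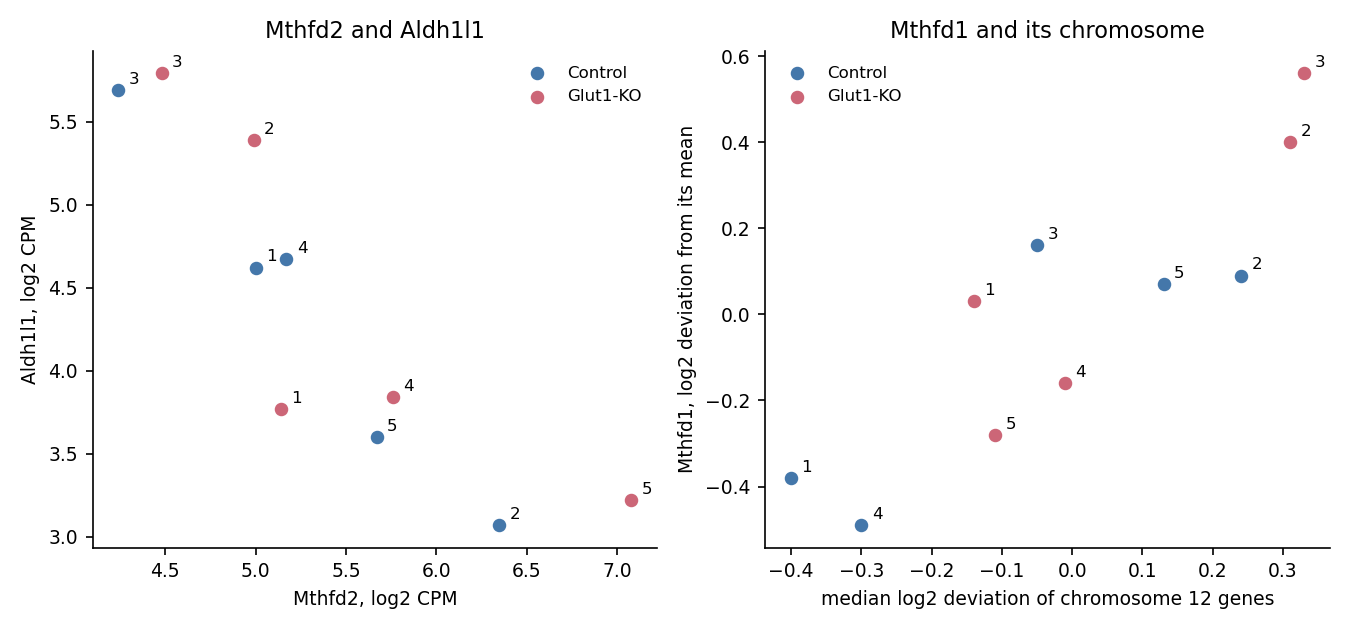
Left, log2 CPM of Aldh1l1 against Mthfd2, and right, log2 deviation of Mthfd1 from its mean against the median log2 deviation of 463 genes of chromosome 12, with 1 point per library coloured by group and numbered by replicate. Aldh1l1 falls as Mthfd2 rises (r = -0.88, n = 10) and Mthfd1 rises with its chromosome (r = 0.88, n = 10), libraries of both groups lying along the same lines.

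Marker sums of several cell types were also at the end of their range in the libraries that stood apart. The summed level of 10 alveolar type 2 markers was 29200 CPM in Control 2, the lowest, and 53800 CPM in Glut1-KO 5, the second lowest, against 59800 to 89500 CPM in the other 8 libraries. The sum of 20 proliferation genes was 1270 CPM in Control 2 and 757 CPM in Glut1-KO 5, against 644 to 875 CPM in the other 8. Control 2 also had the lowest sums of club, ciliated, endothelial and leukocyte markers, and Glut1-KO 5 the second lowest of ciliated markers. The endothelial sum of Glut1-KO 5, 308 CPM, lay in the middle of the 10 libraries, and its sum of 19 stress genes (mostly immediate-early and heat-shock genes) was the lowest, 4660 CPM, against 7380 CPM in Control 2. The sum of Atf4 and further ATF4 targets, 18 genes outside the 10 enzymes, was 1670 CPM in Glut1-KO 5 and 1240 CPM in Control 2, and Control 1 stood at 1670 CPM as well. Both libraries were among the lowest 3 for alveolar type 1 markers (2270 and 2290 CPM), club markers (2110 and 3380 CPM) and leukocyte markers (330 and 347 CPM). The leukocyte sum was mostly Lcp1, with means of 325 CPM in Control and 407 CPM in Glut1-KO libraries. Ptprc, Laptm5, Coro1a, Tyrobp and Fcer1g were higher in every Glut1-KO library, replicate 5 included, than in any Control library. Ptprc stood at 5.05 CPM in Glut1-KO 5, the lowest Glut1-KO library, against 3.26 CPM at most in Control. The remaining tested leukocyte genes overlapped between the groups. Control 2 and Glut1-KO 5 were the highest 2 for the sum of 6 purine synthesis genes, at 931 and 863 CPM, against 730 to 833 CPM in the other 8. Of the fibroblast markers, Col1a1 was highest in the same libraries, at 116 and 117 CPM, a gene picked after its values were seen. The sum of the fibroblast list was 2500 and 2290 CPM there, below that of Control 3 (3290 CPM) and Glut1-KO 4 (2610 CPM). That sum was mostly Fn1, with means of 1700 CPM in Control and 1330 CPM in Glut1-KO libraries. Between the groups, 6 of 13 tested leukocyte genes were higher and 10 of 19 stress genes lower at an unadjusted p under 0.05 by limma, where 7.68% of all genes reached it in either direction, and 0 in either list passed the adjusted threshold. All 10 ciliated markers had a negative log2 fold change (median -1.11) and all 12 endothelial markers a positive one (median 0.64), with 0 and 1 gene at an unadjusted p under 0.05 by limma and 0 passing the adjusted threshold. The part of cell composition in the levels of the enzymes was not tested.

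The rest of the pathway gave no called gene by limma either. Of 13 tested genes for the handling of serine and glycine, 11 had a positive and 2 a negative log2 fold change (median 0.08, against 0.00 over all genes). The amino acid transporter Slc38a5 was at 0.166 ± 0.131 CPM in Control and 0.785 ± 0.821 CPM in Glut1-KO libraries (log2 fold change 1.88, adjusted p = 0.587 by limma). The glycine transporter Slc6a9 had a log2 fold change of -0.26. The 4 genes of the glycine cleavage system split evenly, with Amt at 0.38 and Gldc, the decarboxylase, at -1.11 on the log2 scale. Gldc ranged from 1.95 to 37.3 CPM within the Control libraries alone.

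Of 12 tested genes of folate uptake and use, 4 had a positive and 8 a negative log2 fold change (median -0.10). Ggh, which trims the glutamate tail of folates, stood at 19.3 ± 9.97 CPM in Control and 8.69 ± 6.21 CPM in Glut1-KO libraries (log2 fold change -1.22, unadjusted p = 0.0295, adjusted p = 0.61 by limma). Of 11 tested genes of the methionine cycle 4 were higher and 7 lower (median -0.07). Mtrr, which reactivates methionine synthase, stood at 21.1 ± 2.31 and 15.7 ± 3.12 CPM (log2 fold change -0.45, unadjusted p = 0.0153, adjusted p = 0.531 by limma), and Gnmt was at 0.79. Of 6 genes of purine synthesis 1 was higher and 5 lower (median -0.10). Gart, which uses formyl-tetrahydrofolate, was at 95.3 ± 7.21 and 79.9 ± 7.33 CPM (log2 fold change -0.26, adjusted p = 0.599 by limma), with 4 of 5 Glut1-KO libraries below all Control libraries, and Paics was at 0.06. Of the 18 genes of the ATF4 list, 6 were higher and 12 lower (median -0.07), with Vldlr at 0.67 and Ddit4 at -0.54 (adjusted p = 0.677 and 0.555 by limma).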

How the data were processed

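RNA from the CD45-negative fraction of macrodissected mouse lung tumours was sequenced from a stranded mRNA kit. The submitters' processing notes name bcl2fastq 2.17, cutadapt, HISAT2, featureCounts 1.4.4, edgeR and mm10; the annotation release and the use of strand are not given in the sources used here. The authors deposited raw read counts per Ensembl gene, without normalization, and a log2 table that was not used here. From the counts, genes were kept with edgeR 4.0.16 filterByExpr (at least 10 counts, total of at least 15), scaled by TMM and tested with voom and limma 3.58.1 (R 4.3.3) on group, with Benjamini-Hochberg adjustment over 15922 genes and a threshold of 0.05. Single genes were also tested by exact permutation of the 10 libraries (scipy 1.17.1). Levels per kilobase used GENCODE M21 exon lengths, and 96.4% of gene IDs matched. The procedure was tested on simulated data, and the outcome of that test is not reported here. Totals of 35250991 to 49760462 counts per library give low counting error for the 10 enzymes. No label says that replicates are separate animals. The Glut1-KO libraries were labelled with both sexes, so that group did not come from a single animal. Among libraries of the same group and sex, the labels do not say whether the spread behind the p-values lies between animals, tumours or preparations. The sum of alveolar type 2 markers ranged from 29200 to 89500 CPM among the Control libraries, all labelled male. The source of that spread was not tested.

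Members and gene lists were chosen with earlier results of these data known. Besides the 10 enzymes, the rule named, in each pathway list, the tested gene with the smallest p in each direction, the 3 genes most correlated with each enzyme, and Slc2a1; 1 of the genes so named is not reported here. Alternatives were other scalings, filters, tests (edgeR, DESeq2 1.42.0), sex, the replicate block, the name number, sample weights and leaving out libraries.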

Additional observations from a re-analysis of the deposited data

Results flagged for a closer look

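Within groups of 5 libraries, 5 values lay far from the other 4 of their group, in that the gap to the nearest library exceeded 0.71 of the whole range. Of 26 groups of values looked at (10 genes and 3 ratios in both groups), chance gives about 1.3 such values. Phgdh stood at 92.6 CPM in Glut1-KO 5, where the other Glut1-KO libraries lay between 22.4 and 42.5 CPM. Psph stood at 19.1 CPM in the same library, the others lying between 8.1 and 10.8 CPM, and at 19.0 CPM in Control 2, the other Control libraries lying between 10.9 and 12.9 CPM. Mthfd2 stood at 135 CPM in Glut1-KO 5, against 22.3 to 54.2 CPM. Mthfd1l stood at 67.1 CPM in Control 2, against 21.3 to 28.8 CPM. All 5 values were high and belonged to Control 2 or Glut1-KO 5. These values were found on the linear CPM scale. On the log2 scale 1 of the 5 exceeded the same limit, Mthfd1l in Control 2 (0.736), and the other 4 lay between 0.507 and 0.689. A number over that expected by chance was thus found for linear CPM only. Apart from Phgdh, the values belong to genes of the set that moved alike, so they are not separate events. For that reason 5 against 1.3 cannot decide whether there were more than chance gives.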

How the results depend on the processing

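None of the 10 enzymes was called in any setting run, and Psph and Shmt2 kept their direction in all of them, though sex as a covariate brought them from -0.36 to -0.057 and from -0.41 to -0.16. With a mean TPM of at least 20, Psph, Aldh1l1 and Aldh1l2 were not tested. The count of called genes was 0 with limma and became 215 with the DESeq2 Wald test, 3 with sex as a covariate, 1 in male libraries only, 9 with female Glut1-KO libraries against all Control and 2 with counts summed by name number. Leaving out each library in turn gave 0 to 1, the 1 without Control 3. Sex as a covariate reversed Phgdh (0.28), Psat1 (0.53), Shmt1 (0.11), Mthfd1 (-0.11), Mthfd1l (0.49) and Aldh1l1 (-0.78), and male libraries only gave 0.28, 0.53, 0.11, -0.11, 0.49 and -0.78 for the same genes. Female Glut1-KO libraries reversed Mthfd2 (-0.44) and Aldh1l2 (-0.22). Sample quality weights reversed Mthfd1l (0.047) and Aldh1l1 (-0.17). The cause was not tested.

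Leaving out each library in turn moved the log2 fold change from -0.26 to 0.15 for Psat1, -0.26 to 0.078 for Shmt1, -0.23 to 0.46 for Mthfd2, -0.31 to 0.24 for Mthfd1l, -0.22 to 0.48 for Aldh1l1 and -0.21 to 0.28 for Aldh1l2, so their direction was not settled. Phgdh stayed between -0.74 and -0.22, Psph between -0.58 and -0.21, Shmt2 between -0.52 and -0.28 and Mthfd1 between 0.11 and 0.33. Without both Control 2 and Glut1-KO 5, chosen after seeing that they stood highest for several enzymes, 0 genes were called, and Phgdh was at -0.74, Psph at -0.44 and Shmt2 at -0.42 (unadjusted p = 0.0425, 0.019 and 0.0251, adjusted p = 0.462, 0.405 and 0.427 by limma).

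With the replicate number as a block 0 genes were called (1156 at an unadjusted p under 0.05). Same-numbered libraries correlated between -0.131 and 0.196 and 0 of 5 pairs were best matches, so the numbers do not pair the samples. The 10 enzymes had at least 264 counts in every library.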
